A study of Mus musculus with 18 samples.

Results

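The genes described here encode enzymes of liver detoxification in 3 groups: UDP-glucuronosyltransferases, glutathione transferases and carboxylesterases. Members were chosen by name, as every probe set that the platform annotation gives to 1 gene whose symbol starts with Ugt1, Ugt2 or Ugt3, with Gsta, Gstm, Gstt, Gstp, Gsto, Gstk, Gstz or Mgst, or with Ces and a digit. That gave 62 probe sets for 46 of the 18193 genes named by 1 symbol, and each gene was read from the probe set with its highest mean. The 46 genes are 10 glucuronosyltransferases (8 of the Ugt2 family and 2 of the Ugt3 family), 23 glutathione transferases and 13 carboxylesterases. No Ugt1 gene is a member, because each of the 3 probe sets concerned lists 8 Ugt1a genes. Of the 46 genes, 44 passed the filter on dim probe sets and were tested. Ces2f read between 0.9 and 11.1 and Gsto2 between 0.2 and 9.1 on the arrays, and neither was tested.

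Glucuronosyltransferases join glucuronic acid, carried by UDP, to steroids, bile acids, bilirubin and drugs, which makes them soluble enough for bile or urine. Glutathione transferases join the tripeptide glutathione to reactive electrophiles, among them products of lipid peroxidation, and the membrane-bound forms also act on lipid mediators. Carboxylesterases cut ester and amide bonds in drugs and in neutral lipids. Hepatocytes hold much of the body's supply of all 3 kinds of enzyme, and in mice several of the genes are known to differ between males and females.

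The samples were livers of C57BL/6 mice of 2 genotypes, AIM+/+ (called WT) and AIM-/- (called AIM-KO, lacking the macrophage protein AIM that the gene Cd5l encodes). Each genotype was fed normal chow, with 0 weeks of a high-fat diet (HFD), or the HFD for 12 or 20 weeks, and each of the 6 groups had 3 arrays of total liver RNA. The labels give neither age nor sex, so time on the diet cannot be told apart from age. Nor do they say whether the 3 biological replicates of a group were separate animals, so the p-values measure the spread between these samples. Both diet comparisons of a genotype share its chow arrays.

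Cd5l read 702.6 to 1926.8 on the WT arrays and 4 to 23.5 on the AIM-KO arrays. Median intensities of the arrays ranged from 15 to 21.1, and arrays correlated at 0.948 to 0.973 within groups and 0.936 to 0.971 between groups. Xist, the RNA made from the inactive X chromosome of female cells, read 2921.6 to 3049.7 on 4 arrays and 7.8 to 26.2 on the other 14. The 4 arrays with high Xist were all 3 of AIM-KO at 20 weeks and replicate 2 of WT at 20 weeks. In AIM-KO, all arrays at 20 weeks have high Xist and all chow arrays low Xist, so within AIM-KO the 20 week diet change and Xist status cannot be told apart. A term for high Xist in the fit, which rests on the WT 20 week arrays alone, and fits without the WT array with high Xist are given for members where they change a call at 20 weeks. The ratio of 3′ to 5′ actin signal (actin ratio) was 3.64, 2.54 and 4.22 on WT 20 week replicates 1, 2 and 3. In AIM-KO at 20 weeks it was 2.35 to 2.61. Among the WT 20 week arrays, high Xist thus went with the lowest actin ratio, and the Xist term cannot tell them apart.

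More members fell than rose on the HFD in each of the 4 diet comparisons. After 12 weeks in WT, 2 of the 44 members rose and 6 fell (18.2%), where 5.14% of all 14694 genes tested were called. After 20 weeks in WT, 3 rose and 15 fell (40.9%), against 14.5% of all genes. In AIM-KO 5 rose and 17 fell at 12 weeks (22 of 44), against 18.1% of all genes, and 4 rose and 13 fell at 20 weeks (38.6%), against 6.96% of all genes. A call is an adjusted p under 0.05 in limma, over all genes. Among all genes, rises outnumbered falls: 3.52% rose and 1.63% fell at 12 weeks and 8.72% rose and 5.77% fell at 20 weeks for WT, and for AIM-KO 11.4% rose and 6.78% fell, then 4.29% rose and 2.67% fell. The median log2 change over members was -0.24 and -0.32 in WT and -0.30 and -0.20 in AIM-KO, beside all-gene medians between -0.01 and 0.04. After quantile normalization the member median was -0.22 and -0.27 in WT and -0.18 and -0.08 in AIM-KO. Then 7 and 14 members fell in WT and 11 and 11 in AIM-KO, while 2, 3, 5 and 4 rose. Of all genes, 5.53% and 14.8% were then called in WT and 16.5% and 6.32% in AIM-KO. The WT count at 12 weeks was 5 when replicate 2 or 3 of WT chow, or replicate 1 of WT at 12 weeks, was left out. Without replicate 2 or 3 of WT chow, 2.82% and 3.27% of all genes were called there. In AIM-KO at 20 weeks the count of members was 11 without replicate 1 or 3 of that group, and 3 with the Xist term. With that term 1.34% of all genes were called in AIM-KO at 20 weeks.

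**Figure D1:**
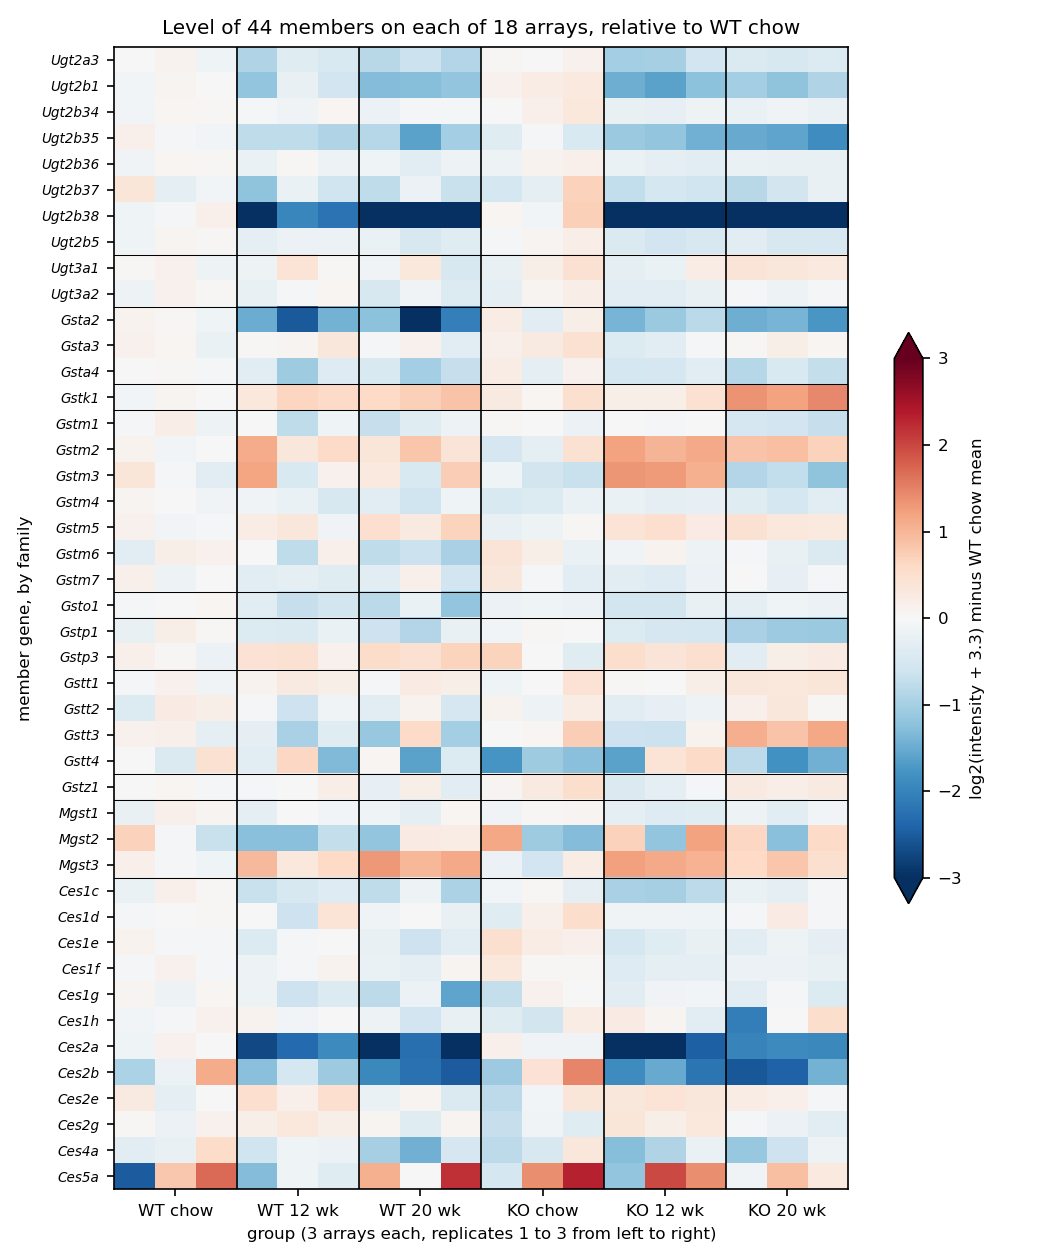
Each row is 1 of the 44 members tested and each column 1 of the 18 arrays, coloured by log2(intensity + 3.3) minus the WT chow mean (blue lower, red higher; colours saturate at the ends of the scale). Rows are grouped by family, and the Ugt2b38, Ces2a and Gsta2 rows are blue on all 12 HFD arrays.

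In all 4 diet comparisons 6 members fell, namely Ugt2b38, Ugt2b1, Ugt2b35, Ugt2a3, Ces2a and Gsta2, and 1, Mgst3, rose. Of these 7, only Ugt2b38 and Ces2a were still called in AIM-KO at 20 weeks when the Xist term was in the fit. Mgst3 lost all 4 calls when the mean of its probe sets was used. In all, 22 members fell in at least 1 diet comparison and 6 rose in at least 1 (Ces2g, Gstk1, Gstm2, Gstm3, Gstm5 and Mgst3). With all arrays, no member was called in opposite directions. The 16 members called in no diet comparison were Ces1d, Ces1h, Ces2e, Ces4a, Ces5a, Gstm4, Gstm7, Gstp3, Gstt1, Gstt2, Gstt3, Gstt4, Mgst2, Ugt2b37, Ugt3a1 and Ugt3a2.

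The Ugt2 genes, which conjugate steroids, bile acids and drugs, carried the largest falls. The 8 members lie side by side on mouse chromosome 5, in the order Ugt2b34, Ugt2b1, Ugt2b35, Ugt2b36, Ugt2b5, Ugt2b37, Ugt2a3 and Ugt2b38. In WT, 4 of the 8 fell at 12 weeks and 5 at 20 weeks, and in AIM-KO 7 fell at 12 weeks and 6 at 20 weeks. None rose, and the estimates of all 8 lay below 0 in each comparison (7 of 8 at 12 weeks in WT after quantile normalization).

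Ugt2b38 is shown with 3 neighbours in the cluster because their upstream sequences are alike while the sizes of their changes on the HFD were not. The sequences are the 100 bases before each annotated start, from RefSeq on GRCm38.p6, written 5′ to 3′ along the gene; all 4 genes lie on the minus strand. Capitals mark the longest run shared with Ugt2b38, and in Ugt2b38 itself the run shared with Ugt2b5.
Ugt2b38, chr5:87424204-87424303: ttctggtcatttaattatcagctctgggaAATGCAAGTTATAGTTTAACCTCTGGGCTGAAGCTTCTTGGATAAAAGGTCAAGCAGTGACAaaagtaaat
Ugt2b5, chr5:87140341-87140440: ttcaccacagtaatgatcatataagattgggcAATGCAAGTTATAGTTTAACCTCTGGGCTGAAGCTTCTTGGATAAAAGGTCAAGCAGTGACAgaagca
Ugt2b37, chr5:87254789-87254888: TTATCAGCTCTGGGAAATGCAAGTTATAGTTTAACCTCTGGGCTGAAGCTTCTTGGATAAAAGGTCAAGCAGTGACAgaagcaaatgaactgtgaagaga
Ugt2b36, chr5:87092556-87092655: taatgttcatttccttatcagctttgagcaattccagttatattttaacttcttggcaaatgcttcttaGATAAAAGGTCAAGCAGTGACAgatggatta

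The shared run with Ugt2b38 was 77 bases in Ugt2b37, 62 in Ugt2b5 and 22 in Ugt2b36. Over a global alignment of the windows, identity with Ugt2b38 was 81.7% for Ugt2b5 (85 of 104 positions), 77.0% for Ugt2b36 (77 of 100) and 73.7% for Ugt2b37 (84 of 114). Gaps, also those at the ends of the windows, counted as differences, so an offset between 2 windows lowers their percentage. The other 4 members of the cluster shared no run longer than 8 bases with it, at 60.7% (Ugt2b35), 52.6% (Ugt2b34), 50.9% (Ugt2a3) and 45.7% (Ugt2b1). Of these 4, Ugt2b35, Ugt2a3 and Ugt2b1 fell in all 4 comparisons, as Ugt2b38 did, and Ugt2b34 in AIM-KO only.

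Of all members, Ugt2b38 had the largest fall in each diet comparison. On chow it read 346.5, 372.6 and 423.5 in WT and 396.9, 357.8 and 624.1 in AIM-KO. At 12 weeks it read 23.4, 95.2 and 79.8 in WT and 18.8, 21.6 and 15.2 in AIM-KO. At 20 weeks it read 19.6, 16.1 and 33.9 in WT and 16.6, 19 and 12.7 in AIM-KO. Every HFD array was thus below every chow array, and WT replicates 2 and 3 at 12 weeks were the highest of the HFD arrays. The log2 changes in WT were -2.67 ± 0.36 (SE; adjusted p = 0.00022) at 12 weeks and -3.91 ± 0.36 (adjusted p = 1.3e-06) at 20 weeks. Those in AIM-KO were -4.37 ± 0.36 (adjusted p = 4.9e-07) at 12 weeks and -4.55 ± 0.36 (adjusted p = 4.7e-07) at 20 weeks. Most HFD readings lay near the array medians of 15 to 21.1, and no detection calls were used here, so the sizes of these changes depend on the pseudocount and no fold is given. With the Xist term the AIM-KO change at 20 weeks was -3.96 (adjusted p = 0.0066).

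Ugt2b5, Ugt2b36 and Ugt2b37, whose upstream letters are nearest to those of Ugt2b38, moved far less. Ugt2b5 read 6873.1, 7937.9 and 7688.3 on WT chow and 6093.6, 6582.4 and 6675.7 at 12 weeks, a change of -0.22 ± 0.09 that was not called. In AIM-KO it fell by 0.56 at 12 weeks and 0.50 at 20 weeks, and in WT by 0.34 at 20 weeks (adjusted p = 0.00044, 0.0029 and 0.02). The WT fall was not called after quantile normalization (adjusted p = 0.068) or without WT 20 week replicate 2 (-0.28, adjusted p = 0.062), and the AIM-KO fall at 20 weeks was not called with the Xist term (-0.31, adjusted p = 0.39). Ugt2b36 read 4747.8 to 6674.2 over all arrays; it was called only in AIM-KO at 12 weeks (-0.30 ± 0.10, adjusted p = 0.033), and quantile normalization ended that call (adjusted p = 0.91). Ugt2b37 was dim, at 23.1 to 95.6, and its changes of -0.50 to -0.66 were not called. The levels of Ugt2b34 ranged from 2990.8 to 4388.6, with falls of 0.36 and 0.32 in AIM-KO at 12 and 20 weeks (adjusted p = 0.0094 and 0.037) that quantile normalization also ended (adjusted p = 0.2 and 0.15). The second was -0.37 with the Xist term (adjusted p = 0.29).

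Ugt2b1, which acts on small phenols and drugs, read 5657.8, 6358.9 and 6097.2 on WT chow, 2641.1, 5175.3 and 4020.2 at 12 weeks, and 2451.5, 2486.7 and 2664.8 at 20 weeks. In AIM-KO it read 6584.1, 7047.9 and 7445.7 on chow, 2175.2, 1995.6 and 2574.2 at 12 weeks, and 2958, 2591.2 and 3233.9 at 20 weeks. Chow and HFD arrays did not overlap in either genotype, and the WT arrays at 12 weeks spread over nearly the whole way between the levels on chow and at 20 weeks. The WT changes were -0.67 ± 0.17 (adjusted p = 0.025) and -1.25 ± 0.17 (adjusted p = 6.9e-05). Those in AIM-KO were -1.65 ± 0.17 (adjusted p = 4.4e-06) and -1.27 ± 0.17 (adjusted p = 0.00012). The WT call at 12 weeks was lost without WT 12 week replicate 1 (-0.40) or without replicate 2 (-0.63) or 3 (-0.66) of WT chow. The AIM-KO change at 20 weeks was -1.23 with the Xist term and was not called (adjusted p = 0.058).

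Ugt2b35, a further Ugt2b enzyme, read 4523.5, 3892.1 and 3840.4 on WT chow, 2383.9, 2386.2 and 2177.3 at 12 weeks, and 2235.3, 1332.3 and 2013.3 at 20 weeks. In AIM-KO the levels were 3158.1, 4001.5 and 2972.9 on chow, 1869.7, 1799.2 and 1503.5 at 12 weeks, and 1422.6, 1350 and 1111.6 at 20 weeks. All HFD arrays lay below all chow arrays, and the WT 20 week array with high Xist was the lowest of its group, inside the range of AIM-KO at 20 weeks. The changes were -0.82 ± 0.16 and -1.16 ± 0.16 in WT and -0.96 ± 0.16 and -1.38 ± 0.16 in AIM-KO (adjusted p = 0.0051, 9.5e-05, 0.00042 and 3.6e-05). The last was -0.71 (adjusted p = 0.13) with the Xist term.

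Ugt2a3 read 2714.1 to 3179.4 on WT chow and 2948.7 to 3243.3 on AIM-KO chow. On the HFD it read 1573.7 to 2286.1 and 1601.8 to 1884.6 in WT, and 1445 to 1964.1 and 2124.5 to 2209.8 in AIM-KO, at 12 and 20 weeks. The groups on the HFD lay apart from chow in both genotypes, by -0.58 ± 0.13 and -0.79 ± 0.13 in WT and -0.93 ± 0.13 and -0.50 ± 0.13 in AIM-KO (adjusted p = 0.014, 0.00058, 0.00011 and 0.029). The AIM-KO call at 20 weeks was made in 0 of the 6 fits that leave out 1 of its arrays, and the change there was -0.71 (adjusted p = 0.15) with the Xist term. The WT call at 12 weeks was lost without WT 12 week replicate 1 (-0.41) or WT chow replicate 2 (-0.52).

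The 2 members of the Ugt3 family, which use other sugars than glucuronic acid, were not called in any comparison with all arrays. Ugt3a2 read 2591.5, 3126.9 and 2936.7 on WT chow and 2064.7, 2681.2 and 2169.5 at 20 weeks, a change of -0.33 ± 0.13 (adjusted p = 0.088). Without WT 20 week replicate 2 this change was -0.44 and was called (adjusted p = 0.023). Without AIM-KO chow replicate 1, Ugt3a2 was also called lower at 20 weeks in WT and at 12 weeks in AIM-KO. Ugt3a1 read 503.6 to 971.9 over all arrays, with changes between -0.22 and 0.20.

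**Figure D2:**
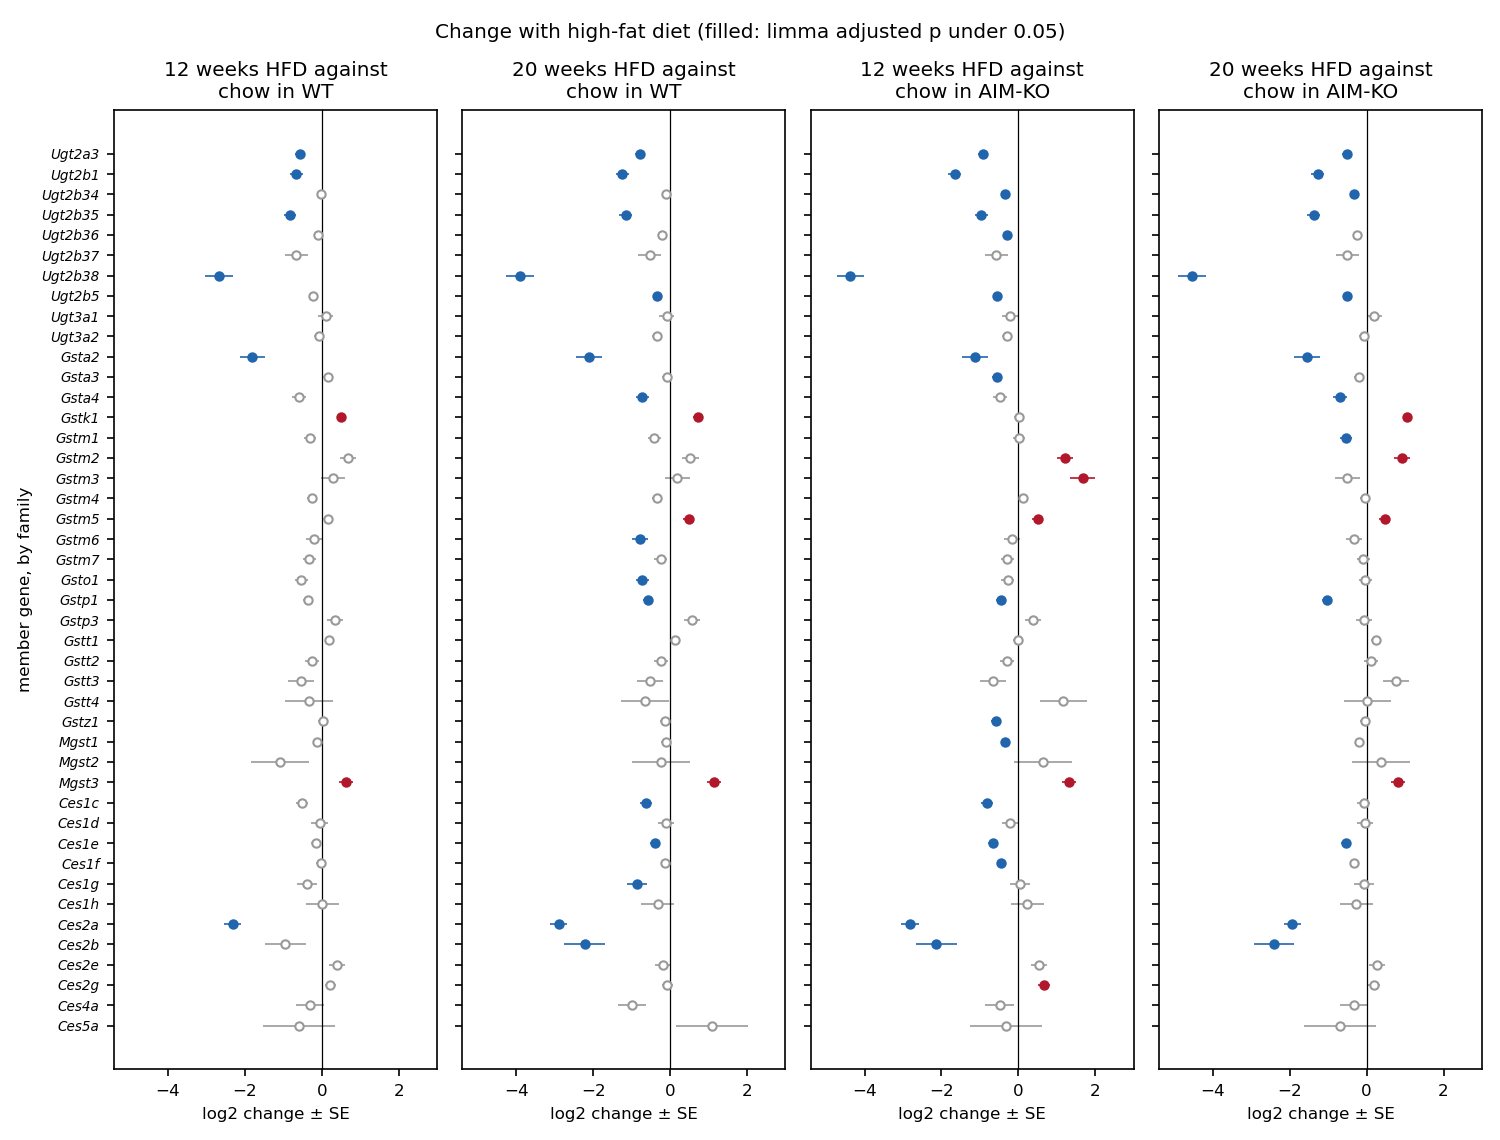
Each panel shows 1 diet comparison, with the log2 change ± SE of the 44 members on the horizontal axis (3 arrays per group) and members by family on the vertical axis. Filled points have an adjusted p under 0.05, in red where higher and in blue where lower. Ugt2b38 lies farthest left at -2.67, -3.91, -4.37 and -4.55, and Mgst3 is filled red in all 4 panels.

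Among the 22 glutathione transferases tested, calls went both ways: 2 rose and 1 fell at 12 weeks in WT, 3 rose and 5 fell at 20 weeks in WT, 4 rose and 5 fell at 12 weeks in AIM-KO, and 4 rose and 4 fell at 20 weeks in AIM-KO. Their median change was -0.23, -0.24, -0.10 and -0.05, and the third of these turned to 0.03 after quantile normalization. All calls in the alpha class were falls, all calls of the kappa form Gstk1 and of the membrane-bound Mgst3 were rises, and the mu class had both.

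Gsta2, an alpha-class enzyme that acts on lipid peroxides, fell in all 4 comparisons. It read 3396.4, 3265 and 2902.9 on WT chow, 1137.8, 549 and 1189 at 12 weeks, and 1357.2, 379.8 and 766.5 at 20 weeks. The AIM-KO levels were 3688.2, 2532.2 and 3592.9 on chow, 1208.9, 1458.8 and 1800.7 at 12 weeks, and 1155.3, 1206.9 and 952 at 20 weeks. No HFD array reached a chow array, and the lowest WT array at 20 weeks was the one with high Xist. The changes were -1.81 ± 0.33 (adjusted p = 0.0031) and -2.11 ± 0.33 (adjusted p = 0.00032) in WT. They were -1.13 ± 0.33 (adjusted p = 0.023) and -1.55 ± 0.33 (adjusted p = 0.0075) in AIM-KO. With the Xist term the AIM-KO change at 20 weeks was -0.13 (adjusted p = 0.93). The AIM-KO call at 12 weeks was lost without AIM-KO chow replicate 1 (-1.04) or 3 (-1.05), or without AIM-KO 12 week replicate 1 (-0.99) or 2 (-1.13). A probe set that Gsta2 shares with Gsta1 and Gm3776 read 0.06 there, and among the diet comparisons was called only in AIM-KO at 20 weeks.

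Gsta4, the alpha form that conjugates hydroxynonenal, read 1212 to 1281.1 on WT chow and 618.1 to 911.6 at 20 weeks, and 1037.8 to 1460.9 and 683.1 to 915.3 in AIM-KO. It fell at 20 weeks in WT (-0.72 ± 0.18, adjusted p = 0.01) and in AIM-KO (-0.70 ± 0.18, adjusted p = 0.023; -0.27 with the Xist term, adjusted p = 0.75). Gsta3 read 3687 to 4637.2 on WT chow and 3407.9 to 5350.7 on the WT HFD arrays, with no call in WT. In AIM-KO it went from 4730.6, 5083.8 and 5811.3 on chow to 3188.9, 3384.3 and 4122.2 at 12 weeks, a fall of 0.55 (adjusted p = 0.0062; 0.14 after quantile normalization). A second Gsta3 probe set changed by -0.20 there and was not called (adjusted p = 0.33).

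The mu class, coded by a cluster of Gstm genes on chromosome 3, had members that rose beside others that did not. Gstm2 read 211.8, 248.2 and 409.9 on AIM-KO chow, 692, 612.1 and 659.2 at 12 weeks, and 545.1, 566.3 and 484.2 at 20 weeks. All 6 AIM-KO arrays on the HFD were above those on chow, by 1.22 ± 0.21 (adjusted p = 0.00045) and 0.92 ± 0.21 (adjusted p = 0.0097). The second was not called without AIM-KO chow replicate 1 (0.73) or with the Xist term (0.47, adjusted p = 0.59). In WT, Gstm2 read 320.3, 284.7 and 295.2 on chow, 650.5, 377.5 and 445.4 at 12 weeks, and 389.2, 535.6 and 389.9 at 20 weeks, with changes of 0.67 ± 0.21 (adjusted p = 0.068) and 0.53 ± 0.21 (adjusted p = 0.098).

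Gstm3 read 923.6, 689 and 637.1 on AIM-KO chow, 2529, 2463.3 and 2129 at 12 weeks, and 543.8, 605.1 and 433.3 at 20 weeks. It rose 3.17-fold at 12 weeks (1.67 ± 0.32 on the log2 scale, adjusted p = 0.0013), and its level at 20 weeks lay below that on chow without a call (-0.50 ± 0.32, adjusted p = 0.42). The WT arrays at 12 weeks read 2308.6, 734.8 and 1111.4, so 1 of the 3 was as high as those of AIM-KO and the others were near chow (803.4 to 1302.7). The WT changes of 0.29 ± 0.32 and 0.19 ± 0.32 were not called. A second Gstm3 probe set gave 1.51 in AIM-KO at 12 weeks (adjusted p = 0.014). At 20 weeks in WT it gave -0.63, not called (adjusted p = 0.35).

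Gstm5 rose by a similar amount at 20 weeks in WT (0.48 ± 0.14, adjusted p = 0.023) and at 12 and 20 weeks in AIM-KO (0.50 ± 0.14 and 0.47 ± 0.14, adjusted p = 0.015 and 0.044). Its levels were 178.5 to 207.3 on WT chow, 228.6 to 300.5 at 20 weeks in WT, and 159.8 to 193.9, 222.2 to 269.2 and 231.1 to 257.9 in AIM-KO on chow and at 12 and 20 weeks. These calls held in 2, 2 and 1 of 6 fits that each leave out 1 array, with changes of 0.39 to 0.58 over all 3 comparisons. The AIM-KO change at 20 weeks was 0.77 with the Xist term (adjusted p = 0.12). Gstm6 fell at 20 weeks in WT, from 328.8, 469.2 and 452.7 to 243.1, 263.1 and 207 (-0.79 ± 0.21, adjusted p = 0.014). Gstm1, the main mu form of mouse liver, read 3897.1 to 4534.1 on AIM-KO chow and 2740.5 to 3099.4 at 20 weeks (-0.54 ± 0.16, adjusted p = 0.046; 0.14 after quantile normalization and 0.36 with the Xist term). Of its 3 other probe sets, with changes of -0.41 to -0.58, none was called there, and 1 was called at 20 weeks in WT (-0.72, adjusted p = 0.04). At 12 weeks in AIM-KO its change was 0.02 ± 0.16. Gstm4 and Gstm7 were not called.

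Gstk1, the kappa form found in mitochondria and peroxisomes, rose in 3 of the 4 comparisons. It read 1379.5, 1545.3 and 1425.9 on WT chow, 1810.2, 2263.9 and 2165.6 at 12 weeks, and 2176.7, 2389.3 and 2638 at 20 weeks. AIM-KO arrays read 1736.2, 1502.8 and 2013.2 on chow, 1643.4, 1630.1 and 1982.9 at 12 weeks, and 3674.3, 3342.2 and 3919.1 at 20 weeks. The AIM-KO arrays at 12 weeks overlapped with chow, and those at 20 weeks were above every other array. The changes were 0.51 ± 0.12 (adjusted p = 0.017) and 0.72 ± 0.12 (adjusted p = 0.00055) in WT, and 0.01 ± 0.12 and 1.06 ± 0.12 (adjusted p = 2.6e-05) in AIM-KO. With the Xist term the last was 1.07 (adjusted p = 0.024). The WT call at 12 weeks was lost without WT chow replicate 1 (0.48) or 3 (0.50) or WT 12 week replicate 2 (0.45) or 3 (0.48).

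Mgst3, a microsomal enzyme with peroxidase activity toward lipid hydroperoxides, rose throughout. It read 283.3, 248.8 and 231.7 on WT chow, 498.2, 317.6 and 383.5 at 12 weeks, and 625.7, 509.1 and 561.6 at 20 weeks. The AIM-KO arrays read 225.5, 169.1 and 296.4 on chow, 599.4, 562.9 and 526.3 at 12 weeks, and 384, 455.8 and 354.3 at 20 weeks. No chow array reached the HFD arrays of its genotype. The changes were 0.62 ± 0.18 (adjusted p = 0.049) and 1.14 ± 0.18 (adjusted p = 0.00029) in WT and 1.31 ± 0.18 (adjusted p = 6.7e-05) and 0.81 ± 0.18 (adjusted p = 0.0089) in AIM-KO. The WT call at 12 weeks held in 1 of 6 fits without an array (0.45 without WT 12 week replicate 1). That in AIM-KO at 20 weeks was lost without AIM-KO chow replicate 2 (0.61) or AIM-KO 20 week replicate 2 (0.71), and with the Xist term (1.03, adjusted p = 0.13). A second, dim Mgst3 probe set had changes of 0.14 to 0.60, none of them called. With the mean of probe sets in place of the brightest, Mgst3 was called in none of the 4 diet comparisons.

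Mgst1, the abundant microsomal form, read 7765.3 to 11166.2 over all arrays and was called only in AIM-KO at 12 weeks (-0.35 ± 0.11, adjusted p = 0.04; 0.87 after quantile normalization). Mgst2 was dim, at 0.5 to 18.4.

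Gstp1, the pi form, read 8359.5, 11053.5 and 9972.8 on WT chow and 6314.9, 5315.1 and 8376 at 20 weeks. Although the highest WT array at 20 weeks passed the lowest on chow, the change of -0.57 ± 0.13 was called (adjusted p = 0.0069). Levels in AIM-KO were 9178.3, 10004 and 9749.4 on chow, 7353.9, 6879.6 and 6777 at 12 weeks, and 4969.8, 4565 and 4509.5 at 20 weeks. The AIM-KO groups were in 3 separate ranges, and Gstp1 fell by 0.46 (adjusted p = 0.02; 0.26 after quantile normalization) and by 1.04 (adjusted p = 8.2e-05; -0.59 with the Xist term, adjusted p = 0.17).

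The remaining soluble forms were called in 1 comparison or in none by their brightest probe sets. Gsto1, of the omega class, fell at 20 weeks in WT, from 2023.6, 2131.8 and 2187.8 to 1207, 1848.1 and 930.5 (-0.73 ± 0.17, adjusted p = 0.0074). Its second probe set fell in 3 comparisons, by 0.82 and 0.92 in WT at 12 and 20 weeks (adjusted p = 0.019 and 0.0039) and by 0.99 at 12 weeks in AIM-KO (adjusted p = 0.0016). The 2 probe sets differ most in the last of these, where the brightest gave -0.28 ± 0.17. Gstz1, the zeta form that also isomerizes maleylacetoacetate in tyrosine breakdown, fell at 12 weeks in AIM-KO, from 2530.5, 2871.2 and 3444.2 to 1744.2, 1934.4 and 2270.4 (-0.57 ± 0.13, adjusted p = 0.0057). None of the 4 theta-class members was called in a diet comparison with all arrays. Without WT 20 week replicate 2, Gstt3 was called lower at 20 weeks in WT (-1.08, adjusted p = 0.0069; -0.52 ± 0.34 with it) and at 12 weeks in AIM-KO (-0.66), and higher at 20 weeks in AIM-KO (0.77, adjusted p = 0.044; -0.88 with the Xist term, adjusted p = 0.33). In the same class, Gstt1 read 1996.3 to 2982.1 over all arrays. Gstt4 was dim, at 0.6 to 17.8.

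**Figure D3:**
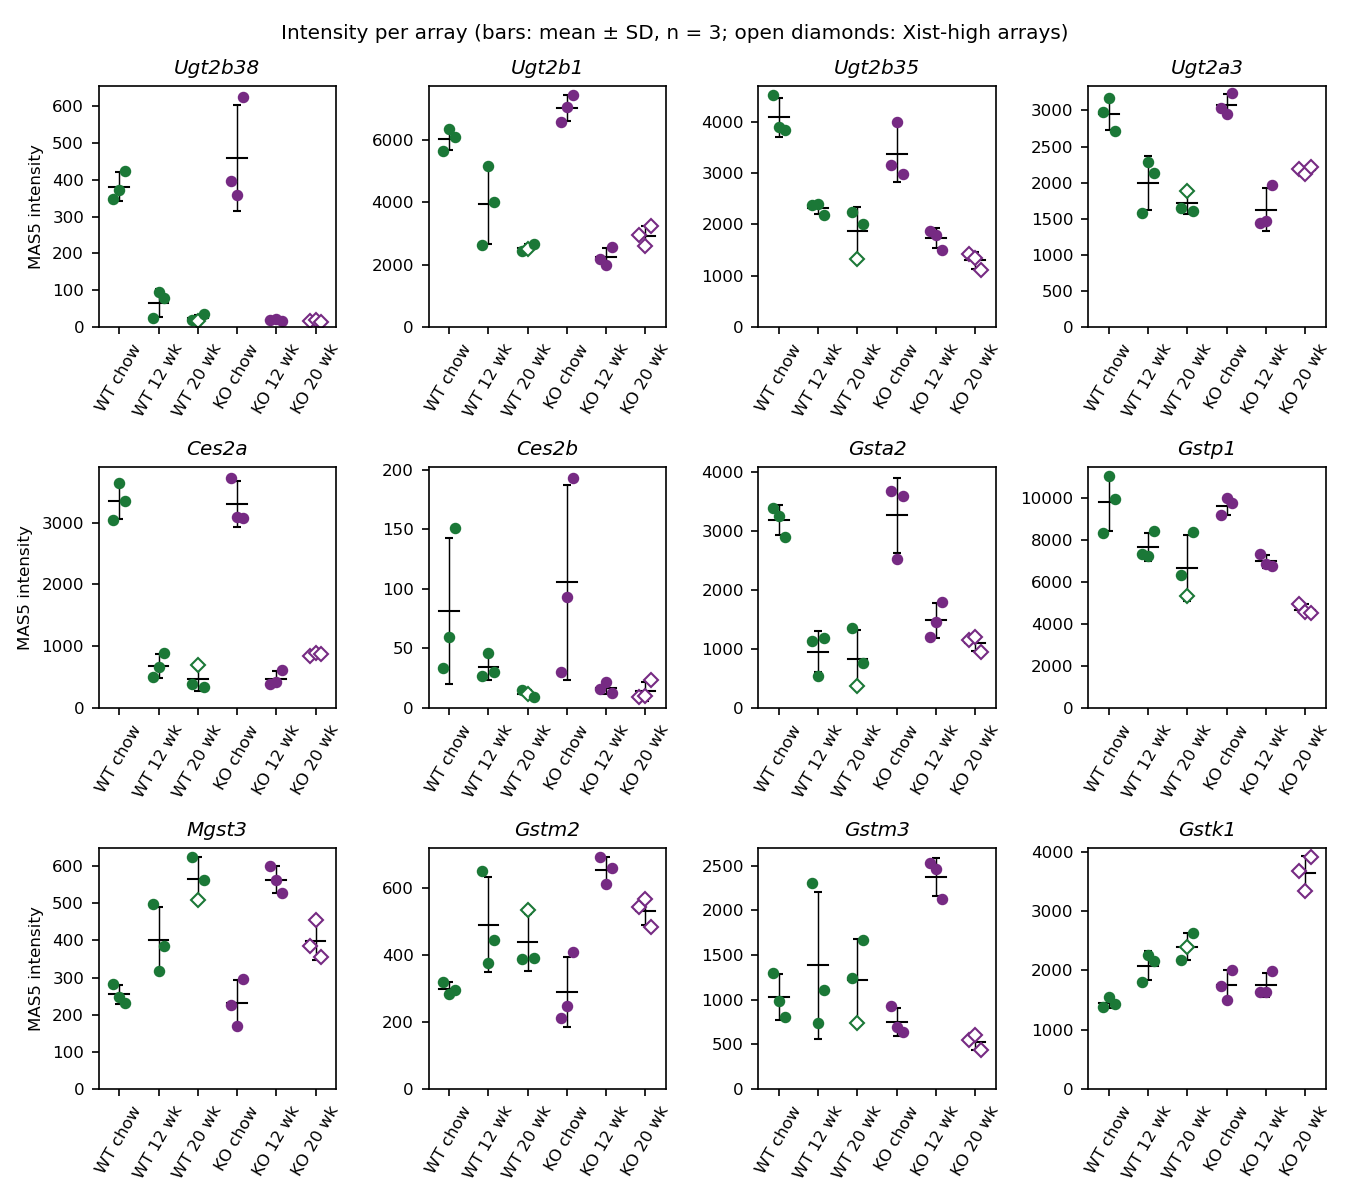
Array intensities of leading members in the 6 groups, with green for WT, purple for AIM-KO, open diamonds for arrays with high Xist, and black lines for the mean ± SD of 3 arrays. The Ugt2b38 points go from 346.5 to 624.1 on chow to 95.2 or less on the HFD, and the Mgst3 points go the other way.

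Of 12 carboxylesterases tested, 1 fell at 12 weeks and 5 fell at 20 weeks in WT, and 5 fell and 1 rose at 12 weeks and 3 fell at 20 weeks in AIM-KO. All of these genes lie on mouse chromosome 8. Ces1 enzymes act on triglycerides and cholesteryl esters as well as drugs, while Ces2 enzymes prefer small acyl groups and also act on acylglycerols.

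Ces2a fell the most among the carboxylesterases whose arrays were bright. It read 3047.9, 3645.8 and 3352.6 on WT chow, 508.1, 656.7 and 891.8 at 12 weeks, and 379.7, 694.1 and 331 at 20 weeks. AIM-KO levels were 3725.5, 3094.6 and 3080.1 on chow, 394.9, 412.5 and 607.8 at 12 weeks, and 834.6, 884.8 and 868.6 at 20 weeks. The highest HFD array (891.8) lay far below the lowest chow array (3047.9). The changes were -2.32 ± 0.23 (adjusted p = 7.4e-06) and -2.90 ± 0.23 (adjusted p = 2.9e-07) in WT and -2.82 ± 0.23 (adjusted p = 4.7e-07) and -1.93 ± 0.23 (adjusted p = 3.9e-05) in AIM-KO. In mean intensity chow exceeded the HFD 4.88-fold and 7.15-fold in WT and 3.83-fold at 20 weeks in AIM-KO. With the Xist term the last change was -2.89 (adjusted p = 0.0001), and all 4 calls held in every fit that left out 1 array of the groups compared.

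Ces2b read 33.5, 59.8 and 150.9 on WT chow, 26.6, 46.3 and 30 at 12 weeks, and 15.4, 11.7 and 9.2 at 20 weeks. In AIM-KO it read 30.2, 93.2 and 193 on chow, 16, 21.6 and 12.3 at 12 weeks, and 8.8, 9.9 and 23.1 at 20 weeks. Chow arrays of both genotypes ranged widely, and the HFD arrays lay below them except at 12 weeks in WT, where they overlapped. The changes were -0.95 ± 0.53 (adjusted p = 0.35) and -2.22 ± 0.53 (adjusted p = 0.0079) in WT and -2.13 ± 0.53 (adjusted p = 0.0082) and -2.41 ± 0.53 (adjusted p = 0.0086) in AIM-KO. Without WT chow replicate 3 the second was -1.67, and without AIM-KO chow replicate 3 the third was -1.54, neither of them called. With the Xist term the fourth was -2.38 (adjusted p = 0.27).

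Ces2g went the other way at 12 weeks in AIM-KO, from 101.3, 152.7 and 128.3 on chow to 214.1, 187.4 and 207.5 (0.67 ± 0.15, adjusted p = 0.0048). Its other diet changes were between -0.07 and 0.22 and were not called. Ces2e read 425.2 to 952.4 on AIM-KO chow and 930.6 to 990.1 at 12 weeks, a change of 0.54 ± 0.21 (adjusted p = 0.09). Members of the Ces2 group thus moved apart on the same diet, with Ces2a and Ces2b lower and Ces2g higher at 12 weeks in AIM-KO.

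The Ces1 genes changed less. Ces1c, a secreted plasma esterase, read 6845.5, 8635.4 and 8050.7 on WT chow, 4892.4, 5584.8 and 5989.7 at 12 weeks, and 4629, 7003.4 and 4027.4 at 20 weeks. The highest value at 20 weeks, from the array with high Xist, overlapped with chow. In AIM-KO it read 7431.8, 7984.7 and 6510.2 on chow, 3956.2, 3919.8 and 4534.8 at 12 weeks, and 6773.1, 6433.4 and 7545.5 at 20 weeks. It fell at 20 weeks in WT (-0.62 ± 0.16, adjusted p = 0.011; -0.85 without replicate 2, adjusted p = 0.00017) and at 12 weeks in AIM-KO (-0.82 ± 0.16, adjusted p = 0.0013). The WT call was lost without replicate 2 of WT chow or replicate 1 or 3 of WT at 20 weeks (lowest -0.46). At 20 weeks in AIM-KO the change was -0.08 ± 0.16.

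Ces1e fell at 20 weeks in WT (-0.40 ± 0.13, adjusted p = 0.039) and at 12 and 20 weeks in AIM-KO (-0.66 ± 0.13 and -0.53 ± 0.13, adjusted p = 0.0013 and 0.015). The WT call was lost without WT 20 week replicate 2 (-0.29, adjusted p = 0.14), and the AIM-KO call at 20 weeks with the Xist term (-0.20, adjusted p = 0.73). Ces1f fell at 12 weeks in AIM-KO only (-0.45 ± 0.11, adjusted p = 0.0063; 0.072 after quantile normalization). Ces1g, which limits lipid output of the liver, fell at 20 weeks in WT, from 1275.6, 1096.4 and 1265.4 to 705.6, 1062.7 and 401.9 (-0.85 ± 0.26, adjusted p = 0.032). Ces1d, a triglyceride hydrolase, read 2751.4 to 6109.3 over all arrays and had changes of -0.04 to -0.22. Ces1h, Ces4a and Ces5a were dim, at no more than 57.8, 45.4 and 198.3, and not called.

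The comparison of genotypes asks whether loss of AIM changed these genes or their response to the diet. In limma no member was called between AIM-KO and WT on chow, at 12 weeks or at 20 weeks, where 0.0272% of all genes (0.00681% higher, 0.0204% lower), 0.0749% (0.0408% higher, 0.0340% lower) and 0.157% (0.0272% higher, 0.129% lower) were called. At an unadjusted p under 0.05 there were 7, 13 and 16 of the 44 members (4, 3 and 11 higher, and 3, 10 and 5 lower). These were larger shares than the 7.2%, 8.4% and 13.4% of all genes. Nor was any member called for a difference of the diet effect between genotypes at 12 or 20 weeks, where 0.00681% and 0% of all genes were called. There, 12 and 7 of the 44 members had an unadjusted p under 0.05 (3 and 5 higher, and 9 and 2 lower). These too were larger shares than the 9.4% and 10.2% of all genes. At 20 weeks all 3 AIM-KO arrays but 1 of the 3 WT arrays have high Xist. Genotype and Xist status are thus partly mixed in both 20 week tests, also with all arrays in the fit.

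**Figure D4:**
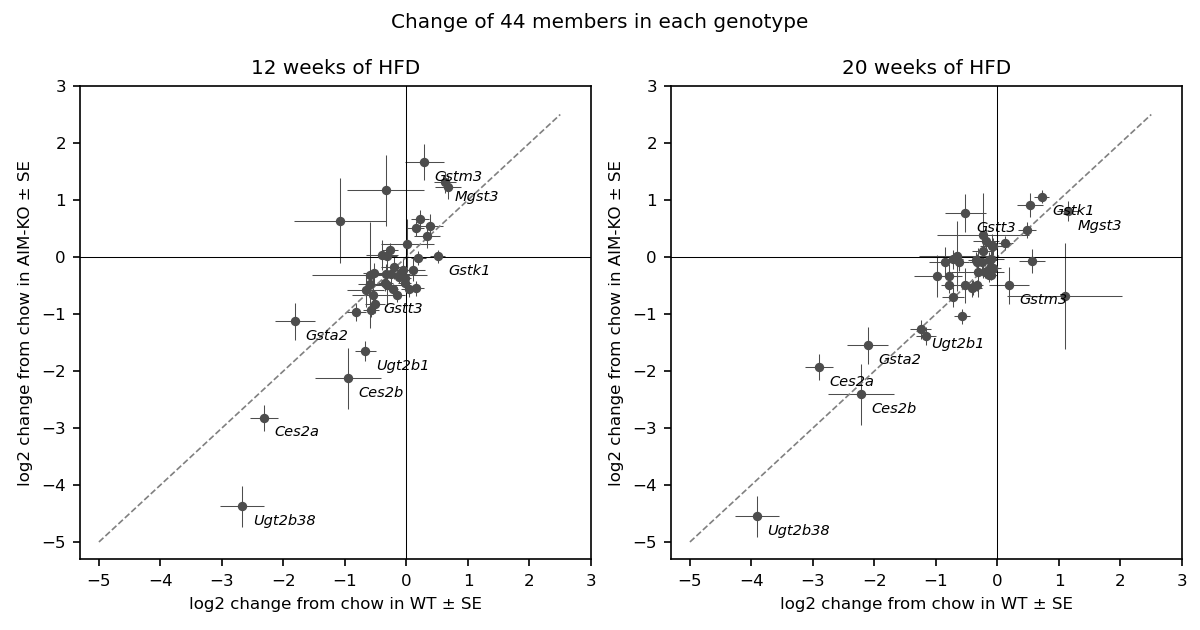
Log2 change with the HFD in WT (horizontal) against that in AIM-KO (vertical) for the 44 members, at 12 and 20 weeks. The 2 axes share no arrays, and points off the diagonal were not called as different between genotypes.

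At 12 weeks the lowest p in both of these tests was that of Ugt2b1, which was lower in AIM-KO than in WT by a log2 difference of -0.77 ± 0.17 (adjusted p = 0.1) and had a diet effect more negative by -0.98 ± 0.24 (adjusted p = 0.27). Ugt2b38 was lower by -1.47 ± 0.36 (adjusted p = 0.17), and Gstm3 higher by 0.94 ± 0.32 (adjusted p = 0.36). These 3 are the members called between genotypes at 12 weeks when WT 12 week replicate 1, the array with the lowest Ugt2b38 and Ugt2b1 and the highest Gstm3 of its group, is left out, and 0.708% of all genes are called then. Ugt2b1 and Ugt2b38 are the 2 then called for a difference of diet effects, with 0.157% of all genes. WT 12 week replicate 1 read 23.4 for Ugt2b38, close to the AIM-KO arrays at that time, and the other WT arrays 95.2 and 79.8.

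At 20 weeks the lowest p was that of Gstk1, higher in AIM-KO by 0.60 ± 0.12 (adjusted p = 0.056). Without WT 20 week replicate 2 the difference was again 0.60 and was called (adjusted p = 0.014). Leaving out that array raised the members called between genotypes at 20 weeks from 0 to 10, where 6.45% of all genes were called. Ces1c, Ces1g, Ces2a, Gstk1, Gsto1, Gstt3 and Gstz1 were then higher in AIM-KO, and Gstm3, Gstp1 and Ugt2b35 lower. Ces1c, Ces2a, Gsto1 and Gstt3 also had a called difference of the diet effect (2.25% of all genes). The second Gstm3 probe set gave 0.03 between genotypes at 20 weeks with all arrays (adjusted p = 0.99), where the one used gave -1.13. With WT 20 week replicate 2 out, the WT arrays at 20 weeks have actin ratios of 3.64 and 4.22, beside 2.35 to 2.61 in AIM-KO. Every AIM-KO array at 20 weeks then also has high Xist and every WT array low Xist. Genotype, Xist status and the actin ratio thus cannot be told apart.

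Gstt3, a theta-class member, showed this most. It read 198.1, 656.9 and 214.6 in WT at 20 weeks and 941, 800 and 980.6 in AIM-KO, so the WT array with high Xist lay nearer to AIM-KO than to its own group. The genotype difference was 1.56 ± 0.34 (adjusted p = 0.068), and 2.11 without that array (adjusted p = 0.00016). In Ces2a the WT arrays read 379.7, 694.1 and 331 beside 834.6 to 884.8 in AIM-KO, with differences of 0.95 ± 0.23 (adjusted p = 0.087) and 1.27 (adjusted p = 0.001). Over the 44 members, replicate 2 of WT at 20 weeks was the highest of its group for 19, the lowest for 20 and in the middle for 5. It lay 1 or more on the log2 scale from the mean of the other two for 4 members, between -1.62 for the dim Ces5a and 1.66 for Gstt3.

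**Figure D5:**
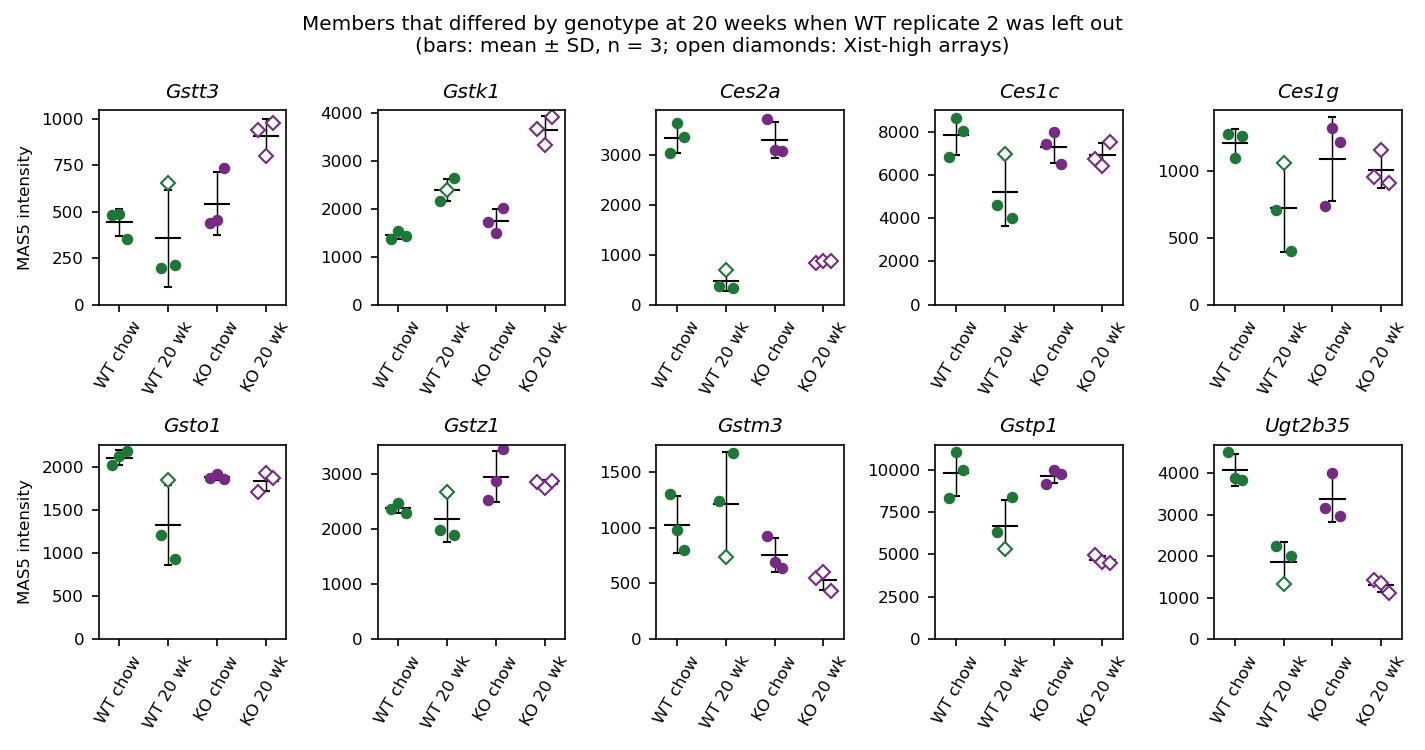
MAS5 intensity (vertical axes, linear from 0) on chow and at 20 weeks of the 10 members called between genotypes when WT 20 week replicate 2 was left out, with green for WT, purple for AIM-KO, open diamonds for the 4 arrays with high Xist and black lines for the mean ± SD of 3 arrays. In Gstt3 the WT diamond sits at 656.9 and the other WT points at 20 weeks at 198.1 and 214.6.

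Other genes of the same pathways moved beside the members. The changes of these and the other listed genes below are given without the Xist term. With that term 1.34% of all genes were called in AIM-KO at 20 weeks. Of 8 genes that supply UDP-glucuronic acid or cleave glucuronides, Gusb, the lysosomal glucuronidase, rose by 0.50 and 0.74 in WT at 12 and 20 weeks and by 0.68 at 12 weeks of HFD in AIM-KO, and Slc35d1, which carries UDP-glucuronic acid into the endoplasmic reticulum, fell by 0.56 at 20 weeks in WT and by 0.45 and 0.61 in AIM-KO. Of 17 tested genes of glutathione synthesis and recycling, 3, 4, 3 and 2 rose and 1, 4, 5 and 0 fell in WT at 12 and 20 weeks and AIM-KO at 12 and 20 weeks. Ggct, which breaks down gamma-glutamyl peptides, rose in all 4 comparisons (1.08, 1.27, 1.81 and 1.52), as did Gpx3, a secreted glutathione peroxidase (0.96, 1.89, 1.26 and 1.13). Gclm, the modifier subunit of the enzyme that starts glutathione synthesis, fell by 0.44, 0.59 and 0.36 in WT at both times and in AIM-KO at 12 weeks.

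NRF2, encoded by Nfe2l2, is a factor that induces several glutathione transferases through the antioxidant response element. Of 16 tested NRF2 pathway genes that are no members, 0, 2, 5 and 1 rose and 1, 4, 1 and 2 fell in the same order of comparisons. Among the 5 that rose in AIM-KO at 12 weeks were Cbr3 (2.13 ± 0.51, adjusted p = 0.0067), Srxn1 (1.44 ± 0.26, adjusted p = 0.00066) and Nfe2l2 itself (0.74 ± 0.17, adjusted p = 0.0055). The core of the antioxidant response element, TGACNNNGC on either strand, was looked for in RefSeq promoter windows of 1 length on GRCm38.p6, which 40 members have. It was in 4 of the 49 member windows, those of Gsta3, Gstm5, Gstm7 and Mgst1, and in 12.4% of 32851 windows of all genes. The sites are shown with the core in capitals, since these genes did not move together.
Gsta3, chr1:21240454-21240482: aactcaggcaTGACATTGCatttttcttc
Gstm5, chr3:107895802-107895830: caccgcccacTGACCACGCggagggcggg
Gstm7, chr3:107931725-107931753: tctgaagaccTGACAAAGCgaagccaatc
Mgst1, chr6:138140461-138140489: gcggggcttgGCACGGTCAggaggcgggg

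Of these 4, Gstm5 rose in 3 comparisons, Gsta3 and Mgst1 fell in AIM-KO at 12 weeks only, and Gstm7 was not called. The Mgst1 match is on the opposite strand, so its capitals are the reverse complement. The STAT5 core TTCNNNGAA, which reads the same on both strands and overlapped with none of these, was in 5 member windows (Ces1h, Ces5a, Gstm6, Mgst1 and Mgst2) and in 8.3% of all windows. None of the 6 members that fell in all 4 comparisons had either core in its windows. The windows lie close to the annotated starts, and sites farther away were not looked for. A match is a stretch of letters and was not tested as a binding site.

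Of 17 receptors and transcription factors tested, Hnf4a, a regulator of hepatocyte genes, fell by 0.45 at 12 weeks and 0.65 at 20 weeks in WT and by 0.57 at 12 weeks in AIM-KO. The receptor gene Nr1i3 (CAR), a sensor of foreign compounds, had changes of -0.84 to 0.26 and was not called. Of 12 phase I genes, none rose and 2, 2, 5 and 2 fell, with Cyp1a2 lower in all 4 (-1.52, -2.15, -1.99 and -1.32). Of 13 tested transporters of conjugates and anions, 0, 2, 3 and 2 rose and 1, 3, 5 and 2 fell. Slco1a1, an uptake carrier, fell by 6.78 at 20 weeks in WT and by 6.20 and 6.83 in AIM-KO, while the export pump Abcc4 rose by 0.78, 0.70 and 0.97 in the same comparisons. Slco1a1 is also among the 9 male-biased genes counted below. Of 15 other lipid and ester hydrolases, 3, 4, 4 and 3 rose and 0, 1, 2 and 0 fell. Lipa, the lysosomal acid lipase, rose in all 4 (1.03, 1.20, 0.82 and 0.73), and Aadac, a microsomal esterase, fell by 0.28 at 20 weeks in WT and by 0.50 at 12 weeks in AIM-KO.

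Genes known as sex-biased and genes of other cell types moved in the same comparisons. Of 9 male-biased genes, 3, 9, 6 and 9 fell and none rose in WT at 12 and 20 weeks and AIM-KO at 12 and 20 weeks. Of 6 tested female-biased genes, 2, 4, 4 and 6 rose and none fell. At 12 weeks no array had high Xist. The 12 macrophage markers summed to 1469 to 1591 on WT chow, 1974 to 3342 and 3180 to 4195 in WT at 12 and 20 weeks, and 1546 to 2101, 4071 to 4214 and 1772 to 2595 in AIM-KO on chow and at 12 and 20 weeks. The 8 stellate cell markers summed to 1576 to 1848, 2475 to 3695 and 3697 to 4774 in WT and 1430 to 1659, 2932 to 3508 and 2303 to 3013 in AIM-KO. The 11 tested hepatocyte markers, out of 13, summed to 84481 to 103849, 76560 to 93485 and 79209 to 93996 in WT and 92741 to 96416, 70626 to 74989 and 75979 to 87093 in AIM-KO. Of these 11, none rose, and 0, 3, 7 and 0 fell in the same order of diet comparisons. Their median log2 changes were -0.11, -0.11, -0.36 and -0.20, beside -0.24, -0.32, -0.30 and -0.20 for the members. No marker of these lists was at 0 on any array. Of 9 tested periportal hepatocyte genes, 3, 3, 6 and 2 fell and 1, 1, 1 and 0 rose. Of 11 tested pericentral hepatocyte genes, 1, 1, 2 and 1 fell and 2, 1, 2 and 3 rose. The part of all these lists in the changes of the members was not tested. In whole liver RNA, fewer cells of a type and less RNA per cell cannot be told apart.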

How the data were processed

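Per the submitters' processing notes the deposited intensity values are MAS5 signals on a linear scale; the version, background and scaling steps are not given in the sources used here. Per the labels, total liver RNA was labelled with biotin. Intensities were turned into log2(value + 3.3), the pseudocount being the 20th percentile of all values, so changes of dim genes are understated; nothing else was normalized. A probe set was kept if it passed its array's 40th percentile on 3 arrays or more, the brightest per gene was used, and 14694 genes were fitted with limma 3.58.1 (R 4.3.3) as 6 group means over 18 arrays with a variance trend, p-values being 2-sided and Benjamini-Hochberg adjusted over all genes. The number of arrays limits the precision: the median SE of a comparison was 0.22. Intensities are not compared between genes.

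Genes were matched by the platform annotation, which gives 34945 of 45101 probe sets 1 gene, 932 several and 9160 none, leaving 64 controls. Probe sets of near-identical family members can share signal, so single paralogs are uncertain. The procedure was tested on simulated data.

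Members and lists were chosen with earlier results of these data known. Genes described with values were, per comparison, up to 6 members with the largest rise and fall, the brightest per family, all of a count of 5 or fewer, and up to 3 called genes per list; other members are given so that each is accounted for and were chosen after their values were seen. Alternatives changed the pseudocount (13.2 or 0.825), normalization, filter, probe set choice, variance trend, terms for replicate number, Xist or actin ratio, or the arrays fitted. A fit with probe sets of several genes included was added after seeing the data.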

Additional observations from a re-analysis of the deposited data

How the results depend on the processing

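The counts of called members moved by over 1.5 times or changed from 0 in few alternatives. Without the variance trend, 5 members were called at 12 weeks in WT (8 as reported), with only the groups compared 11 at 20 weeks in WT (18), and with a term for high Xist 3 at 20 weeks in AIM-KO (17). In these fits 3.69%, 9.34% and 1.34% of all genes were called (5.14%, 14.5% and 6.96% as reported). A term for the actin ratio changed the count at 20 weeks in WT little (16, with 10.9% of all genes called) but changed its members. Ces1c, Ces1g, Gstm5, Gstm6 and Gsto1 were then not called there, and Ces4a, Gstm2 and Gstm4 were. Ces1g, Gstm6 and Gsto1 were called as reported in that diet comparison only. Between genotypes at 20 weeks, 1 member (Gstk1) was called with the larger pseudocount, after quantile normalization, with the stricter filter and with a replicate block, instead of 0. Leaving out 1 array in turn gave 5 to 11 and 12 to 20 calls at 12 and 20 weeks in WT and 17 to 23 and 11 to 18 in AIM-KO. It gave 0 on chow, 0 to 3 at 12 weeks and 0 to 10 at 20 weeks between genotypes, and 0 to 2 and 0 to 4 for the difference of the diet effect at 12 and 20 weeks. Of the 6 fits without 1 array of the groups compared, 1 kept the call of Ces1e (-0.49 to -0.29) and of Ces1g (-1.18 to -0.48) at 20 weeks in WT, of Mgst1 (-0.40 to -0.31) and Ugt2b36 (-0.40 to -0.24) at 12 weeks in AIM-KO, and of Gstm1 (-0.61 to -0.50) and Ugt2b34 (-0.41 to -0.24) at 20 weeks in AIM-KO. The calls of Ugt2b5 at 20 weeks in WT, Gstp1 at 12 weeks and Gsta4 at 20 weeks in AIM-KO held in 2 of 6, and those of Gstm6 at 20 weeks in WT and Ces1e at 20 weeks in AIM-KO in 3 of 6. Quantile normalization left 16 of the 22 calls at 12 weeks in AIM-KO. Replicate numbers were not used to pair the arrays. The deviations of 45 same-number pairs correlated at -0.09 to 0.23 (median 0.04), 5 of them over 0.1, beside a median of -0.02 for 90 pairs of different number. A replicate block gave 9 and 19 calls in WT and 22 and 15 in AIM-KO, and 9 of the 18 arrays correlated best with one of their own number. With that block 5.78% and 15.1% of all genes were called in WT and 18.9% and 7.63% in AIM-KO. Between genotypes at 20 weeks that block raised the share of all genes called from 0.157% to 0.429%. No change of a named member that was called as reported, with all arrays, turned its sign in the alternatives run. Gstt3 in AIM-KO at 20 weeks, called higher in a fit without WT 20 week replicate 2, was below 0 with the Xist term. For these changes the causes were not tested.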

Other observations

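Of the probe sets left out, 6 are given by the annotation to several genes of these families and cannot be assigned to 1 gene. The probe set shared by Ces3a and Ces3b, liver carboxylesterases of the endoplasmic reticulum, changed by -0.28 ± 0.13 (adjusted p = 0.24) and -0.78 ± 0.13 (adjusted p = 0.00062) at 12 and 20 weeks in WT and by -0.65 ± 0.13 (adjusted p = 0.002) and -0.62 ± 0.13 (adjusted p = 0.0075) in AIM-KO. The probe set shared by Gsta1, Gsta2 and Gm3776 read 0.06 ± 0.44 at 12 weeks in AIM-KO, where the Gsta2 probe set was at -1.13, and fell by 1.56 at 20 weeks (adjusted p = 0.039). In WT it changed by -1.03 and -1.04 at 12 and 20 weeks, not called (adjusted p = 0.2 and 0.13), where the Gsta2 probe set was at -1.81 and -2.11. Of the 3 probe sets for Ugt1a genes, which share their last exons and include the bilirubin transferase, 1 changed by -0.57 ± 0.17 at 20 weeks in WT (adjusted p = 0.033), and all their other diet changes, of -0.33 to -0.04, were not called. The probe set of Ugt2a1 and Ugt2a2 had changes of -0.11 to -1.07 and was not called. All adjusted p-values here are from limma with these probe sets added to the genes tested.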
